A study of Rattus norvegicus with 2 samples.

Results

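Fast transmission between the neurons of the retina runs on glutamate for excitation and on GABA and glycine for inhibition, and the receptor genes for these transmitters were compared between a sham-operated and an ischemic rat retina. They were found by gene symbol in the deposited table of gene expression. The symbols had to begin with *Gria*, *Grin*, *Grik*, *Grid* or *Grm* and a digit (glutamate receptors, here called excitatory) or with *Gabr* or name a *Glra* or *Glrb* gene (GABA-A and glycine receptors, here called inhibitory). The rule took 51 of the 32662 genes in the table, 27 excitatory and 24 inhibitory. The name excitatory stands for the glutamate receptor families and not for the effect of each receptor. Group III metabotropic receptors, for example, inhibit adenylyl cyclase or close a channel. Of the 51 genes, 50 code for receptors or receptor subunits. The exception is *Grid2ip*, which codes for a scaffold protein of synapses and is no receptor subunit, with 0.0200 FPKM in CTRL and 0.0702 in IR12.

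The retina data hold 1 RNA-seq library per condition, both from retina of 2 months old Long-Evans rats, which were female per the study's methods. CTRL went through a sham procedure, and IR12 through ischemia-reperfusion (IR) injury with collection 12 hours after reperfusion. Both are whole retina, so that receptors of all its neurons and glia are measured together. The labels of the samples name a total RNA kit and the design text of the series an mRNA kit, and in each case ribosomal RNA was removed. With 1 library per condition no difference given here has a replicate check, no test was possible, and a difference between the animals cannot be told apart from the injury.

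Gene expression is given as FPKM, which are reads scaled to transcript length and to the mapped reads of the library, so that levels can be compared between genes per length. The table holds no read counts, and the totals of sequenced reads were not used here, but the lowest values of genes of equal length repeat in steps. If the smallest step is 1 read, 1 FPKM at a locus length of 939 bp corresponds to 11.3 reads in CTRL and 19.4 reads in IR12. These steps describe the scaling of the table and need not follow the sequenced totals. Differences are given on the log2 scale, as the ratio of (FPKM + 1) in IR12 to that in CTRL, a scale that understates the fold of low genes. Of the 51 genes, 39 had a mean FPKM over both libraries of at least 1, which are 20 excitatory and 19 inhibitory genes. The other 12 had at most 0.946 FPKM in CTRL and 0.939 in IR12, and 3 of them were listed at 0 in both libraries. The median log2 ratio of the 13186 genes of the table that pass the same minimum was 0.02. When both libraries are scaled to the same FPKM sum, every ratio is raised by 0.65 before the pseudocount and the median gene moves to 0.60, so values relative to the median gene are given as well. Counts of genes past a fold are also on the scale of (FPKM + 1).

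As background, ionotropic glutamate receptors are channels of 4 subunits from the AMPA, NMDA, kainate and delta families, while metabotropic glutamate receptors act through G proteins. GABA-A and glycine receptors are chloride channels of 5 subunits. In the retina, OFF bipolar cells receive the glutamate of the photoreceptors through AMPA and kainate receptors and ON bipolar cells through mGluR6, the product of *Grm6*. Amacrine and ganglion cells carry AMPA, NMDA, GABA-A and glycine receptors, and bipolar cell terminals carry GABA-A receptors of rho subunits.

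Most of the receptor genes had a lower FPKM in IR12, and nearly all lay below the median gene. Of the 39 genes over the minimum, 35 were lower in IR12 as deposited, against 48.1% of all genes over the minimum. In number, 21 of the 39 were at least 1.5-fold lower (13.4% of all genes) and 0 were at least 1.5-fold higher (14.3% of all genes). Scaled to the same sum, 0 excitatory and 2 inhibitory genes were at least 1.5-fold lower. The shares of all genes given here are as deposited. They are no background for counts with equal sums, where the median gene is at 0.60. At 2-fold, 5 were lower (6.05% of all genes) and 0 were higher (6.29% of all genes), while with both libraries scaled to the same sum 0 of the 39 were 2-fold lower. *Grin2c*, *Grin3a* and *Glra4* were under 1 in IR12 and passed the minimum through CTRL, so they had to be lower. Of the 39, 7 lie within 0.1 of the 1.5-fold limit on the log2 scale, so the count at that limit is not sharp. With both libraries scaled to the same sum, 21 of the 39 were lower, while 36 of the 39 were below the median gene on this scale and also 36 as deposited. In a whole retina, fewer cells of a type and less RNA per cell cannot be told apart.

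**Figure D1:**
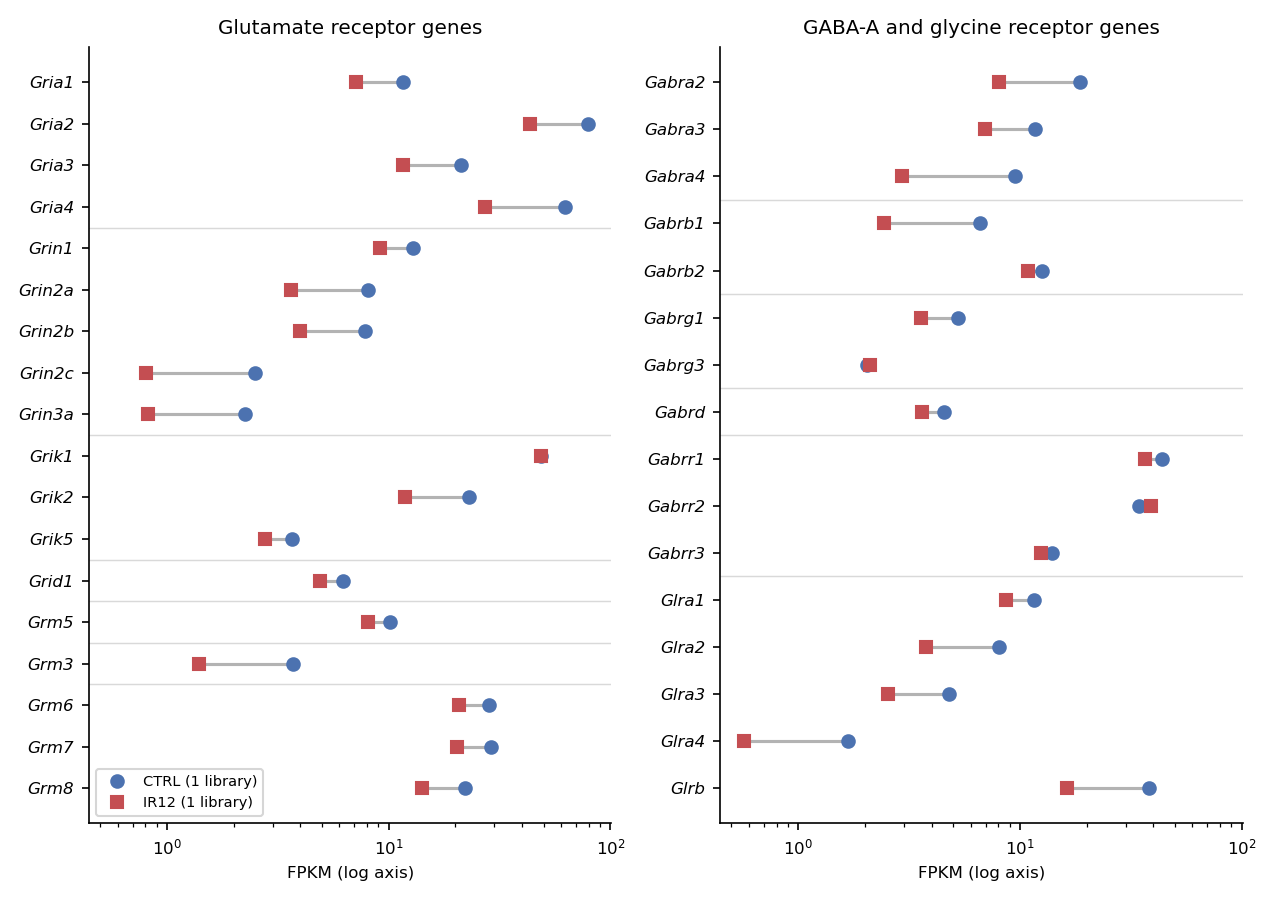
FPKM of 34 of the receptor genes with a mean FPKM of at least 1, on a log axis, with a circle for CTRL and a square for IR12 (1 library each) and lines between families. The IR12 square lies left of the CTRL circle for 31 of them as deposited (18 with both libraries scaled to the same sum), and *Gabrr2*, *Gabrg3* and *Grik1* are the other 3.

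The median of the excitatory genes was below that of the inhibitory genes. The 20 excitatory genes had a median log2 ratio of -0.62, with 19 lower and 13 at least 1.5-fold lower in IR12. The 19 inhibitory genes had a median of -0.44, with 16 lower and 8 at least 1.5-fold lower. Of all genes over the minimum, 48.1% were lower and 13.4% at least 1.5-fold lower. When both libraries are scaled to the same sum, 0 excitatory and 2 inhibitory genes were at least 1.5-fold lower. The shares of all genes are as deposited and cannot be set beside these 2 counts. The medians differ by -0.17, and by -0.15 with both libraries scaled to the same sum, where the excitatory median was -0.06 and the inhibitory median turned to 0.08. The difference was -0.38 with metabotropic receptors left out and -0.28 with a minimum mean FPKM of 5. In summed FPKM the gap was wider. Sums are weighted toward the highest genes, some of which are not reported here. The wider gap is therefore not a trait of each class as a whole. All excitatory genes together had 399 in CTRL and 251 in IR12, and all inhibitory genes together had 419 in CTRL and 353 in IR12. The ratio of excitatory to inhibitory FPKM, which does not depend on the scaling, was therefore 0.953 in CTRL and 0.709 in IR12. Relative to the median gene, the excitatory median was -0.64 as deposited and -0.67 with equal sums, and the inhibitory median was -0.47 and -0.52. The ranges of the sets overlap, with lowest ratios of -1.18 for excitatory and -1.41 for inhibitory genes.

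**Figure D2:**
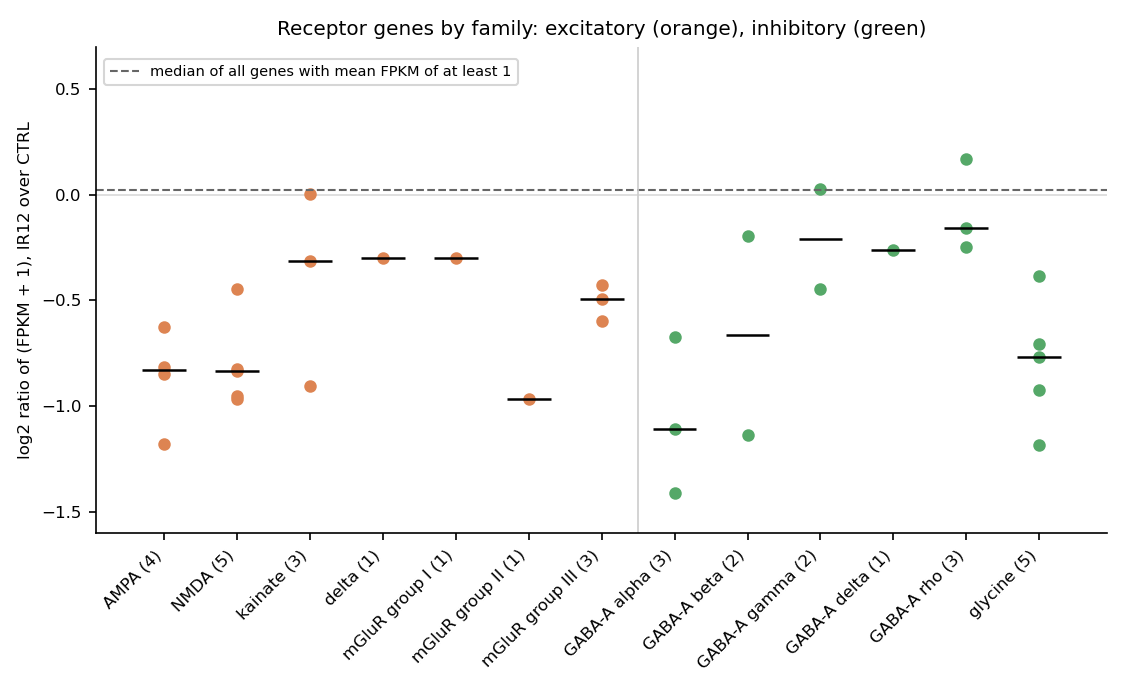
Log2 ratio of (FPKM + 1), IR12 over CTRL, for 34 of the receptor genes by family, with a point per gene, the number of genes drawn in brackets, a bar at their median and a dashed line at the median of all genes (0.02). The AMPA, NMDA, group II metabotropic and glycine medians, families drawn with all their genes over the minimum, lie between -0.97 and -0.77, and the GABA-A rho median is -0.16. The NMDA and glycine medians are the values of *Grin3a* and *Glra4*, which passed the minimum through CTRL.

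All 4 AMPA receptor genes were lower in IR12, with log2 ratios between -1.18 and -0.63, also with both libraries scaled to the same sum (median -0.21). AMPA receptors carry most fast excitation in the inner retina. *Gria2* codes for GluA2, the subunit that makes AMPA channels nearly impermeable to calcium, and was the highest of the 4, with 79.0 FPKM in CTRL and 43.5 in IR12. *Gria4* (rn6, chromosome 8, 1548146 to 2045817) had 62.6 in CTRL and 27.1 in IR12 and was the 1 excitatory gene over the minimum that was at least 2-fold lower on the (FPKM + 1) scale. *Gria3* had 21.2 in CTRL and 11.6 in IR12. *Gria1* was lowest, with 11.6 in CTRL and 7.16 in IR12. The composition of the family differed less than its level. *Gria2* took 45.3% of the AMPA FPKM in CTRL and 48.7% in IR12, and *Gria4* 35.9% and 30.3%.

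NMDA receptors join the obligatory subunit GluN1, coded by *Grin1*, with GluN2 or GluN3 subunits. The 5 NMDA genes over the minimum had a median log2 ratio of -0.83 (-0.42 with both libraries scaled to the same sum), and 4 of them were at least 1.5-fold lower in IR12. Among these 4, *Grin2c* and *Grin3a* passed the minimum through CTRL and had to be lower. The median as deposited is the value of *Grin3a*, so the count and the median are in part set by the minimum. *Grin1* had the highest ratio of the 5, with 12.8 FPKM in CTRL and 9.16 in IR12, and it was higher in IR12 by 0.15 on the log2 scale with equal sums. *Grin2a* had 8.06 in CTRL and 3.64 in IR12. *Grin2b* had 7.80 in CTRL and 3.97 in IR12. These 2 hold most of the GluN2 FPKM, with a ratio of *Grin2a* to *Grin2b* of 1.03 in CTRL and 0.917 in IR12. *Grin2c* had 2.5 in CTRL and 0.808 in IR12. *Grin3a*, which codes for a GluN3 subunit, had 2.24 in CTRL and 0.819 in IR12. The share of *Grin1* in the NMDA FPKM was 38.2% in CTRL and 49.6% in IR12. *Grin2d* was at 0.154 and 0.0677, and *Grin3b* was listed at 0 in both libraries, where its listed locus is shared by 20 genes.

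The kainate receptor genes split. *Grik1* (rn6, chromosome 11, 27811957 to 27971359), which codes for the kainate subunit GluK1 used by OFF bipolar cells, had an FPKM of 48.6 in both libraries and a log2 ratio of 0.00. *Grik2*, which codes for GluK2, had 23.0 in CTRL and 11.9 in IR12 (log2 ratio -0.90). The ratio of *Grik1* to *Grik2* was 2.11 in CTRL and 4.10 in IR12, and *Grik1* took 63.3% of the kainate FPKM in CTRL and 75.6% in IR12. *Grik5* had 3.67 in CTRL and 2.76 in IR12. *Grik3* and *Grik4* were under 1 in both libraries. The median of the 3 kainate genes over the minimum was -0.31 as deposited and 0.18 with equal sums. Of the 2 delta receptor genes, 1 is described. This gene, *Grid1*, had 6.26 in CTRL and 4.90 in IR12, with a log2 ratio of -0.30 that was 0.25 with equal sums.

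Of the 8 metabotropic glutamate receptor genes, 6 were over the minimum, and all 6 were lower in IR12 as deposited. Their log2 ratios lay between -0.97 and -0.30, with a median of -0.55 that was 0.07 with equal sums. The 3 highest belong to group III, whose receptors inhibit adenylyl cyclase or, for mGluR6, close the cation channel of ON bipolar cells. *Grm6* (rn6, chromosome 10, 36345939 to 36360665) had 28.4 FPKM in CTRL and 20.8 in IR12. *Grm7* had 28.9 in CTRL and 20.3 in IR12. *Grm8* had 22.1 in CTRL and 14.2 in IR12. These 3 lay close together, between -0.60 and -0.43 on the log2 scale, and *Grm4*, the other group III gene, was at 0.501 and 0.217. Of the 2 group I genes, 1 is described. This gene, *Grm5*, which codes for a receptor coupled to phospholipase C, had 10.1 in CTRL and 8.05 in IR12. In group II, *Grm3*, which glia also express in the brain, had 3.69 in CTRL and 1.40 in IR12 and the lowest ratio of the 6, and *Grm2* was at 0.652 and 0.417.

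Of the 4 GABA-A alpha genes over the minimum, *Gabra2*, *Gabra3* and *Gabra4* are described, and the fourth is not reported here. These 3 do not stand for the family, whose level as a whole is not given. The 3 were lower in IR12 both as deposited and with equal sums. *Gabra2* had 18.6 FPKM in CTRL and 8.08 in IR12. *Gabra4* had 9.50 in CTRL and 2.95 in IR12, and its log2 ratio of -1.41 was the lowest of the 39 genes. *Gabra3* had 11.7 in CTRL and 6.99 in IR12. *Gabra5* was at 0.630 and 0.939, and *Gabra6* was listed at 0 in both libraries.

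**Figure D3:**
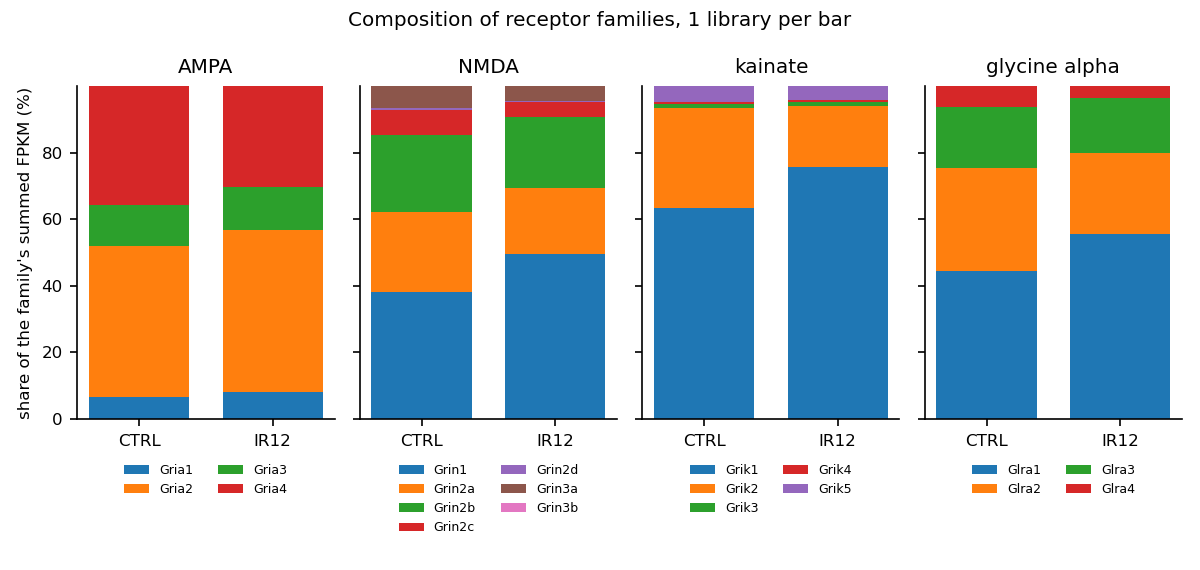
Share of each gene in the summed FPKM of its family (percent), CTRL and IR12 bars from 1 library each, for AMPA, NMDA, kainate and glycine alpha genes. The shares do not depend on library scaling, and the lowest segment of the NMDA, kainate and glycine alpha families (*Grin1*, *Grik1* and *Glra1*) is larger by 11.3 to 12.3 percentage points in IR12.

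The beta and gamma families each have 3 genes over the minimum, of which 2 are described and the third is not reported here, so nothing is said of either family as a whole. Of the beta genes, *Gabrb2* had 12.6 FPKM in CTRL and 10.9 in IR12, a lower value that was higher by 0.40 on the log2 scale with equal sums. *Gabrb1* had 6.59 in CTRL and 2.45 in IR12, and its log2 ratio of -1.14 was -0.63 with equal sums. The gamma subunits join alpha and beta subunits in most synaptic GABA-A receptors. *Gabrg1* had 5.24 in CTRL and 3.59 in IR12, and *Gabrg3* had 2.05 and 2.11. *Gabrd*, whose delta subunit serves receptors outside synapses, had 4.53 in CTRL and 3.61 in IR12, with a log2 ratio of -0.26 that was 0.26 with equal sums. *Gabre* and *Gabrq* were under 1 in both libraries, and *Gabrp* was listed at 0 in both.

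The rho genes form the GABA receptors of bipolar cell terminals and lay near the median gene. *Gabrr1* had 43.7 FPKM in CTRL and 36.7 in IR12. *Gabrr2* had 34.6 in CTRL and 39.1 in IR12. *Gabrr3* had 14.0 in CTRL and 12.4 in IR12. Their log2 ratios spanned only -0.25 to 0.17, and their summed FPKM was 92.3 in CTRL and 88.2 in IR12. The order of *Gabrr1* and *Gabrr2* was exchanged, with a ratio of 1.26 in CTRL and 0.939 in IR12. With equal sums their median was 0.44 in place of -0.16.

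Mammalian GABA-A genes lie in clusters, and neighbours within 2 Mb in the table form 5 clusters. This grouping was made after the values were seen. Of the 5, 3 are described, and the clusters on chromosomes 1 and 10 are left out because they hold genes that are not reported here, so the 3 do not stand for the GABA-A clusters as a whole. The 4 genes of the chromosome 14 cluster (rn6, 38643385 to 40049354) were all lower in IR12 as deposited (*Gabrb1*, *Gabra4* and *Gabra2* also with equal sums, *Gabrg1* not), with a summed FPKM of 39.9 in CTRL and 17.1 in IR12. The sum in IR12 was 0.427 times that in CTRL. The chromosome X cluster of *Gabre*, *Gabra3* and *Gabrq* (152218707 to 152864975) had 12.6 and 7.57, nearly all of it from *Gabra3*. The rho pair on chromosome 5 (48303366 to 48411170) had 78.3 and 75.7, so the IR12 sum was 0.967 times that in CTRL.

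**Figure D4:**
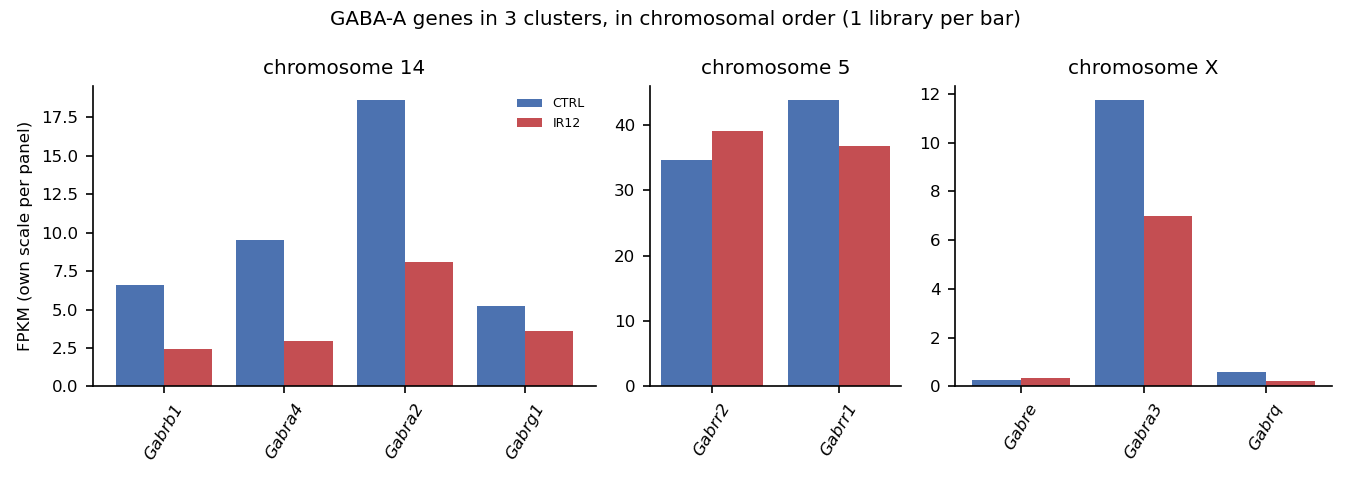
FPKM of 9 GABA-A genes that lie in 3 clusters, in chromosomal order, with bars from 0 for CTRL and IR12 (1 library each) and an own scale per panel. All 4 genes of the chromosome 14 cluster are lower in IR12 (as deposited, while *Gabrg1* is at 0.08 on the log2 scale with equal sums), and the rho pair on chromosome 5 sums to 78.3 in CTRL and 75.7 in IR12.

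Promoter sequence was available for 33 of the 51 genes, from RefSeq on GRCr8, a later build than the rn6 of the expression table. The 250 bases before each gene's start were searched on both strands for 4 motifs, and the matches are a description of letters only. The first pair is shown because *Gabrb1* and *Gabrb2* are paralogs on chromosomes 14 and 10 with unlike log2 ratios (-1.14 and -0.19). They were the only 2 of the 33 genes with GCGCATGC, the core of the motif of NRF-1, a factor of broadly active promoters. This core was found in 2.2% of all 33469 promoters. In both genes it occurs on both strands as a palindrome, in capitals below, which starts 29 bases before the start of *Gabrb1* (chr14:36902894-36903013, minus strand) and 95 bases before that of *Gabrb2* (chr10:27439673-27439792, plus strand).
Gabrb1: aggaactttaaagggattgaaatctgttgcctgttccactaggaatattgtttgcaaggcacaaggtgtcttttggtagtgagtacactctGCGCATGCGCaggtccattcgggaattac
Gabrb2: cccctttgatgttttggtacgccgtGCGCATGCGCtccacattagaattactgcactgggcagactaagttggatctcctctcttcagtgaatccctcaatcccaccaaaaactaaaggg

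The rho genes *Gabrr2* and *Gabrr3* are shown next because the rho genes were near the median gene. The other rho gene, *Gabrr1*, was not among the genes found with the motif given here. *Glra3*, which was, had a log2 ratio of -0.71. *Gabrr2* (chr5:52248242-52248361, plus strand) and *Gabrr3* (chr11:54424524-54424643, minus strand), with *Glra3*, were the 3 of 33 genes with TAATCC, the core bound by the photoreceptor and bipolar cell factors Crx and Otx2, which 6.34% of all promoters hold. Capitals mark it, here as its reverse complement.
Gabrr2: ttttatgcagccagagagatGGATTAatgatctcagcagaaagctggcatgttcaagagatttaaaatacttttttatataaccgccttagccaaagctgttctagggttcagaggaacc
Gabrr3: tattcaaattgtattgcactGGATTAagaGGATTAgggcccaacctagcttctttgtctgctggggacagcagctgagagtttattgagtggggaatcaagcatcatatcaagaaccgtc

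*Gabra4* (chr14:36944604-36944723, plus strand) and *Glrb* (chr2:168505615-168505734, minus strand) are shown as the lowest ratios of the GABA-A and glycine genes. Both hold the GC box GGGCGG, in capitals on either strand, as did 13 of the 33 genes and 30.5% of all promoters. The AP-1 motif TGANTCA was in 1 of the 33, *Grid2ip*, and in 6.34% of all promoters.
Gabra4: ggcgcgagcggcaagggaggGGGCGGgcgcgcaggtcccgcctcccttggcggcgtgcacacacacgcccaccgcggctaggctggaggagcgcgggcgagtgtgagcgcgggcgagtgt
Glrb: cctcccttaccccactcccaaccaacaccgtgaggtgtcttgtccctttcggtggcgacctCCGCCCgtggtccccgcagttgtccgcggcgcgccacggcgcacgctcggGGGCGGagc

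The 5 glycine receptor genes were all lower in IR12 as deposited, and all but *Glra1* with equal sums. Glycine is the transmitter of narrow-field amacrine cells. *Glrb* (rn6, chromosome 2, 179769009 to 179842547), which codes for the beta subunit that anchors the receptor to gephyrin, had 38.4 FPKM in CTRL and 16.3 in IR12 (log2 ratio -1.18). *Glra1* was the highest alpha gene, with 11.6 in CTRL and 8.64 in IR12. *Glra2* had 8.09 in CTRL and 3.79 in IR12. *Glra1* had the highest ratio of the 5, and it was higher in IR12 with equal sums, by 0.20 on the log2 scale. *Glra3* had 4.77 in CTRL and 2.54 in IR12, and *Glra4* had 1.67 and 0.569. The FPKM of the beta gene was lower relative to the alpha genes in IR12, with a ratio of *Glrb* to the summed alpha FPKM of 1.47 in CTRL and 1.05 in IR12. The share of *Glra1* in the alpha FPKM was 44.3% in CTRL and 55.6% in IR12. The median of the 5 genes was -0.77, and -0.38 with equal sums. *Glra4* passed the minimum through CTRL and had to be lower, and the median as deposited is its value.

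As deposited, 21 of the 51 genes were at 10 FPKM or more in CTRL and 15 in IR12. These counts depend on the scaling of the libraries. They were not made with equal sums or over all genes, so no direction is read from them.

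The receptor genes are long, and over the whole table longer genes had lower ratios. The median locus was 255 kb for the 20 excitatory genes, 87.1 kb for the 19 inhibitory genes and 25.0 kb for all genes over the minimum. Over all genes, the median log2 ratio was 0.12 up to 10 kb, 0.13 from 10 to 30 kb, -0.01 from 30 to 100 kb, -0.19 from 100 to 300 kb and -0.37 above 300 kb. Genes lower in IR12 made up 69.1% from 100 to 300 kb and 80.9% above 300 kb. Excitatory genes had medians of -0.83 (7 genes) and -0.60 (9 genes) in these 2 classes, below those of all genes of that length. The median of the 7 is the value of *Grin3a*, which passed the minimum through CTRL and had to be lower. It is thus in part set by the minimum. The inhibitory genes had -0.27 from 30 to 100 kb (9 genes), -0.61 from 100 to 300 kb (6 genes) and -0.92 above 300 kb (2 genes). Among the receptor genes above 100 kb, only *Grik1* with 159 kb and *Gabrg3* with 278 kb were not lower as deposited. From 30 to 100 kb, which is above the median locus of all genes, 7 of the 9 inhibitory genes were lower (50.6% of all genes of that length). Among these 7 were *Gabra4* with 77.2 kb and *Glrb* with 73.5 kb. *Gabrr2* with 38.3 kb, in the same class, was not lower. *Grin2c* with 18.0 kb passed the minimum through CTRL and had to be lower. The part of locus length in these differences was not tested. The listed locus is shared with other genes for 13 of the 39, and the classes of all genes with a locus of their own had medians of -0.20 from 100 to 300 kb and -0.41 above 300 kb.

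The partners of the receptors were counted from lists. Over all genes past the minimum, 48.1% were lower as deposited, 13.4% by at least 1.5-fold and 6.05% by at least 2-fold. These shares apply to the counts of all partner and marker lists. Of the 8 auxiliary subunits of AMPA and kainate receptors over the minimum, 7 were lower in IR12 as deposited, 4 by at least 1.5-fold, with a median of -0.49 (0.05 with equal sums). The stargazin gene *Cacng2* had 4.67 in CTRL and 1.72 in IR12, and its relative *Cacng4* had 7.01 and 2.03. The 3 highest were nearer to equal, *Neto2* with 12.1 and 10.4, *Cacng7* with 7.69 and 8.15, and *Cacng3* with 7.77 and 6.79. The 16 excitatory scaffold genes had a median of -0.29 (0.19 with equal sums), with 2 lower and 2 higher by at least 1.5-fold, which is near the shares of all genes (13.4% and 14.3%). *Grip2* was under 1 in IR12 and passed the minimum through CTRL. *Dlg4*, which codes for PSD-95, had 151 in CTRL and 149.7 in IR12. *Dlg1* had 45.2 and 112, *Homer3* had 3.74 and 8.97, and *Dlg2* had 80.7 and 56.2.

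Of the 9 scaffold and trafficking genes of inhibitory synapses over the minimum, 7 were lower in IR12 as deposited (48.1% of all genes). The median of the 9 was -0.43 (0.18 with equal sums), and 2 of them were at least 1.5-fold lower (13.4% of all genes). These 2 are *Nlgn2* with 9.44 and 4.79 and *Lhfpl4* with 1.92 and 0.784, which passed the minimum through CTRL and had to be lower. *Gabarapl1* had 199 FPKM in CTRL and 159 in IR12. *Gabarap*, a trafficking gene of GABA-A receptors, had 139 and 164, and *Clptm1* had 63.2 and 73.6. The gephyrin gene *Gphn*, chosen here after its values were seen because gephyrin binds the product of *Glrb*, had 47.5 and 46.4.

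The cascade behind mGluR6 in ON bipolar cells has 11 genes in the list, *Grm6* among them. Of these, 9 were lower in IR12 as deposited, with a median of -0.25 that was 0.39 with equal sums. *Gng13* had 182 in CTRL and 177 in IR12. *Trpm1*, the channel that the cascade closes, had 189 and 159, and *Gnb5* had 169 and 162. *Gnb3*, the G protein beta subunit of the cascade, was at least 2-fold higher on the (FPKM + 1) scale, with 71.9 and 147.

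The genes for making and carrying GABA and glycine were lower as deposited, 8 of 8 over the minimum (48.1% of all genes). Of the 8, 6 were lower by at least 1.5-fold (13.4% of all genes) and 3 by at least 2-fold (6.05% of all genes). Their median was -0.87, and -0.25 with equal sums, where *Gad1* and *Slc32a1* were higher, by 0.28 and 0.17 on the log2 scale. *Gad1*, which makes GABA, had 107 FPKM in CTRL and 82.7 in IR12. The GABA transporter gene *Slc6a13* had 17.0 and 1.82. *Abat*, which breaks GABA down, had 21.7 and 7.05. The glycine transporter gene *Slc6a9* had 66.6 and 38.0.

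**Figure D5:**
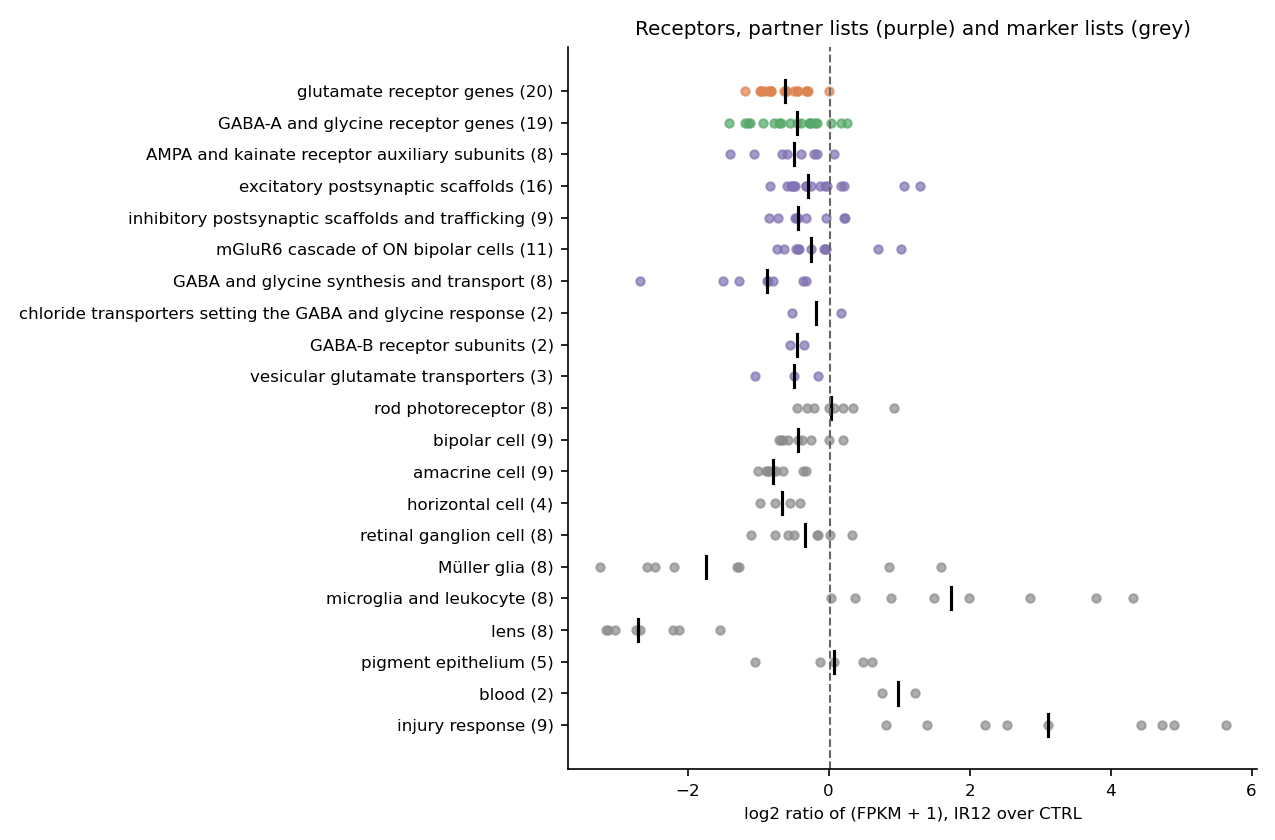
Log2 ratio of (FPKM + 1), IR12 over CTRL, with a point per gene and a black bar at the median, for the receptor genes, the partner lists and the marker lists, number of genes in brackets, and a dashed line at the median of all genes (0.02). Injury response genes have a median of 3.12, in part set by the minimum since 4 of the 9 pass it only through IR12, and lens and Müller glia genes have medians of -2.71 and -1.74.

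Most markers of the retinal neurons that carry these receptors were lower in IR12 as deposited. All 9 amacrine cell markers were lower, of which *Gad1*, *Gad2*, *Slc6a9* and *Slc32a1* are also among the genes for making and carrying GABA and glycine, with a median of -0.79 (-0.24 with equal sums) and a summed FPKM of 686 in CTRL and 411 in IR12. *Tfap2a* was under 1 in IR12 and passed the minimum through CTRL, so it had to be lower. *Calb2* was the highest, with 275 and 148, followed by *Pax6* with 165 and 105 and *Gad1*. The 4 horizontal cell markers over the minimum had a median of -0.66 (-0.07 with equal sums), and the list of 6 sums to 201 and 121, with *Sept4* at 77.8 and 52.8, *Calb1* at 74.2 and 43.2 and *Prox1* at 46.5 and 23.1. Of 9 bipolar cell markers over the minimum, 7 were lower, with a median of -0.43 that was 0.19 with equal sums. *Grm6* and *Grik1* are both in that list. It sums to 667 and 511, led by *Trpm1*, *Prkca* with 125 and 79.7 and *Cabp5* with 104 and 64.7. The bipolar cell gene *Otx2* was listed at 0 in both libraries, so no absence of expression can be read from a value of 0.

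Of 8 retinal ganglion cell markers over the minimum, 6 were lower as deposited, with a median of -0.33 that was 0.30 with equal sums, and the list sums to 333 in CTRL and 269.6 in IR12. *Nefl* had 132 and 88.8, *Sncg* 79.7 and 80.7 and *Thy1* 51.3 and 45.7, while *Pou4f2* had 3.41 and 1.06. *Pou4f3*, with 1.85 and 0.679, passed the minimum through CTRL and had to be lower. Of the 8 rod markers, 3 were lower and 5 higher as deposited, with a median of 0.04 (0.68 with equal sums). *Gnat1* was at 4027 and 4237 and *Sag* at 2482 and 4703, and the 3 that were lower are *Pde6b* with 891 and 718, *Nrl* with 54.1 and 39.4 and *Nr2e3* with 27.3 and 23.5. The part of cell type shares in the receptor values was not tested.

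Other tissue differed between the libraries as well. All 8 lens markers were at least 2-fold lower in IR12, with a summed FPKM of 3385 in CTRL and 402 in IR12, led by *Cryba1* with 1614 and 196, *Cryaa* with 1118 and 124 and *Crybb2* with 418 and 47.0. Leaving small RNAs aside, the lens genes took 0.756% of the FPKM in CTRL and 0.0837% in IR12. The other 5 lens genes, *Crygs*, *Mip*, *Lim2*, *Bfsp2* and *Bfsp1*, had log2 ratios between -2.73 and -1.55, and *Bfsp2* passed the minimum through CTRL. Of the 9 leukocyte and microglia markers, 8 were over the minimum and higher in IR12, and the microglia gene *Cx3cr1*, under the minimum, was lower with 1.16 and 0.676. *S100a8*, *S100a9*, *Ptprc*, *Cd68* and *Itgam* were under 1 in CTRL and passed the minimum through IR12, where they were high, so the count of 8 is no support for a direction. The list of 9 sums to 21.6 and 135. *Lyz2* was the highest, with 9.73 and 76.9, *S100a9* had 0.199 and 23.0, and *S100a8* was listed at 0 and had 12.8. *Aif1* had 5.42 and 7.36, *Itgam* 0.693 and 5.71 and *Ptprc* 0.408 and 2.98. The blood genes *Hbb*, with 20.4 and 35.1, and *Hba-a2*, with 6.77 and 17.1, were higher. The other 3 genes of the blood list were under the minimum and lower, *Hba-a1* with 0.859 and 0.168, *Alas2* with 0.334 and 0.196 and *Slc4a1* with 0.0455 and 0.0266. The list of 5 sums to 28.4 and 52.7. The pigment epithelium list sums to 93.0 and 119.9, with *Ttr* at 61.8 and 87.4, *Rgr* at 13.7 and 21.6 and *Rpe65* at 11.1 and 4.88. The part of these tissues in the receptor values was not tested.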

How the data were processed

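RNA-seq was compared between 1 CTRL and 1 IR12 library of rat retina, grouped by their labels. The authors deposited gene expression as FPKM, 1 column per library, for 32662 genes. STAR 2.5.2b, Cuffdiff 2.2.0 and the rn6 build are named in the submitters' processing notes with no role given, and any further scaling between the libraries is not given in the sources used here. Listed locus starts count from 0 and were raised by 1. Of 346 microRNA hairpins matched by name, 190 then have exactly the RefSeq length.

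Receptor genes were found by symbol. Log2 ratios used a pseudocount of 1, and medians and counts used genes with a mean FPKM of at least 1. Each receptor gene over this minimum was named with both values. Of each partner and marker list, the 3 genes highest in mean FPKM and any over the minimum that differed at least 2-fold were named. Some genes these rules would name are not reported here or drawn by name, though they count in medians, sums and counts. Members and lists were chosen with earlier results of these data known. No test was made, since each group has 1 library.

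Small RNAs took 68.1% of the FPKM sum in CTRL and 46.4% in IR12, so the sums do not measure depth. The lowest FPKM steps were compared at 25 locus lengths under 1500 bp, 17 of which gave a step ratio of 1.71, CTRL over IR12. This ratio describes the scaling of the table, and the totals of sequenced reads were not used here. Alternatives were another pseudocount, centring on the median gene, equal FPKM sums, other minimums and smaller gene sets. Promoters were read from RefSeq tables of GRCr8, and 33 of 51 genes matched by symbol. The calculations were tested on simulated data and run in Python 3.11.15 with numpy 2.4.6, pandas 2.3.3 and matplotlib 3.10.9.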

Additional observations from a re-analysis of the deposited data

How the results depend on the processing

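With 7 results and 8 alternatives each, 43 of 56 values moved by less than 0.1 on the log2 scale or, for counts, by at most 1.5 times. Many of the 43 could not move by construction and show nothing of stability: smaller excitatory sets cannot move the inhibitory results, the pseudocount and the minimum cannot move the sums, and centring cannot move the difference of medians. No replicate spread is known, and these margins cannot stand in for it, since they are fixed limits for changes of processing within the same 2 libraries. The medians, counts and sums moved most with equal FPKM sums, the difference of medians with metabotropic receptors left out. With equal FPKM sums the excitatory median was -0.065 in place of -0.62, 0 excitatory genes in place of 13 were at least 1.5-fold lower, and the log2 ratio of the excitatory sums was -0.022 in place of -0.67. The inhibitory median turned to 0.082 from -0.44, 2 genes in place of 8 were at least 1.5-fold lower, and the log2 ratio of the inhibitory sums turned to 0.40 from -0.24. This follows from the scaling, which raises every ratio, by less for low genes because of the pseudocount. An alternative with equal sums of all but the small RNAs was added once the values were known, and there the log2 ratios of the sums were -0.77 for excitatory and -0.34 for inhibitory genes. The medians there were -0.71 and -0.53, and 14 excitatory and 9 inhibitory genes were at least 1.5-fold lower. The excitatory minus the inhibitory median was -0.17 and stayed negative in all 8 alternatives, though centring and leaving out the non-receptor could not move it. Scaling to equal sums, with or without small RNAs, could move it only through the pseudocount. With metabotropic receptors left out, the excitatory median was -0.82 and the difference -0.38. With a minimum mean FPKM of 5, the inhibitory median was -0.33, 5 inhibitory genes were at least 1.5-fold lower, and the difference was -0.28. With a pseudocount of 0.1 the excitatory median was -0.71 and the inhibitory median -0.53. No paired analysis was possible because each group has 1 library. Genes under an FPKM of 1 rest on fewer reads per length than the others, and how precise their ratios are was not measured.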

Other observations

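Genes that act next to the receptors gave further values. The chloride transporters set whether GABA and glycine excite or inhibit a neuron. *Slc12a5*, which exports chloride, had 47.4 FPKM in CTRL and 32.8 in IR12. *Slc12a2*, which imports it, had 28.3 and 32.0, so the ratio of *Slc12a2* to *Slc12a5*, which does not depend on library scaling, was 0.597 in CTRL and 0.976 in IR12. The GABA-B receptor genes were *Gabbr1* with 74.4 and 58.0 and *Gabbr2* with 7.09 and 4.52. Of the vesicular glutamate transporters, *Slc17a7* of photoreceptors and bipolar cells had 499 and 449, *Slc17a6* had 39.0 and 27.4, and *Slc17a8* had 2.19 and 0.551, so that it passed the minimum through CTRL.

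Müller glia take up the glutamate and GABA that neurons release. Of 8 Müller glia markers, 6 were at least 2-fold lower in IR12, and the median of the 8 was -1.74 on the log2 scale (-1.11 with equal FPKM sums). *Glul*, which turns glutamate into glutamine, had 754 FPKM in CTRL and 126 in IR12, and the glutamate transporter gene *Slc1a3* had 108 and 44.3. *Rlbp1* had 126 and 26.8, *Aqp4* had 48.0 and 4.16, *Apoe* had 65.5 and 26.1, and *Kcnj10*, which passed the minimum through CTRL, had 7.07 and 0.467. The markers *Clu*, with 223 and 673, and *Vim*, with 121 and 221, were higher. All 9 injury response genes over the minimum were higher, with a median of 3.12, and the list of 10 has a summed FPKM of 27.3 and 454. *Hmox1*, *Socs3*, *Lcn2* and *Cebpd* were under 1 in CTRL and passed the minimum through IR12, where they were high, so the count and the median are in part set by the minimum. *Timp1* had 4.71 and 169, *Atf3* had 2.62 and 94.5, *Hmox1* had 0.714 and 84.0, and *Gfap* had 2.95 and 21.9. *Socs3* had 0.393 and 29.1, *Fos* had 7.40 and 21.2, *Lcn2* had 0.473 and 11.8, and *Cebpd* had 0.832 and 7.55. Each of these differences is between 2 libraries and has no replicate check.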
